A study of Mus musculus with 6 samples.

Results

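The genes described here are 37 mouse genes that encode parts of the synapse. They were chosen by symbol as a set of synaptic vesicle, active zone and scaffold genes, and all 37 were found among the 55573 genes of the count table. Of the 37, 21 belong to the vesicle and its release machinery, 5 to the active zone and 11 to the postsynaptic scaffold or to adhesion across the cleft. RNA-seq libraries were made from cells of the olfactory bulb of male C57BL/6 mice, 3 months old, which had been sorted by the fluorescence of the Ca2+ sensor Twitch-2B. There were 2 libraries from the Kv1.2 group, 2 from the Kir2.1 group and 2 from the control group. All mice had received a lentivirus in the rostral migratory stream, the path along which adult-born neuroblasts reach the bulb, and all 3 viruses carried Twitch-2B. In the Kv1.2 group the virus also carried Kv1.2, a voltage-gated K+ channel, and in the Kir2.1 group it carried Kir2.1, which is an inwardly rectifying K+ channel. The control virus carried Twitch-2B and, by the study's methods, nuclear mCherry. The study overexpressed each channel to reduce the excitability of adult-born cells, and the comparison asks which transcripts differ between the sorted cells of the groups. Cells were taken 9 days after the injection, and cells of 2 mice were pooled for a library (12 mice in all). By the study's methods 3000 to 4500 sorted cells were lysed for each, and a part of the lysate went into cDNA synthesis. The viral backbone drives its cargo from a ubiquitin promoter, which is active in many cell types, so the sort rests on fluorescence and not on a neuronal promoter.

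Neurons release transmitter from vesicles that dock at the active zone. The SNARE proteins of the vesicle (synaptobrevins, the Vamp genes) and of the plasma membrane (Snap25 and syntaxin 1) zip together to fuse the 2 membranes, synaptotagmin 1 makes the fusion depend on Ca2+, complexins hold and then assist the assembled SNAREs, and NSF with its SNAP adaptors takes the spent complex apart. Bassoon, Piccolo, RIM and Munc13 organise and prime vesicles at the release site. On the other side of the cleft, neuroligins bind presynaptic neurexins, and PSD-95 family proteins, Shank and Homer anchor receptors. Adult-born cells of the bulb gain synapses as they mature into GABAergic interneurons, and new cells are selected in part by their activity, which is why the level of these genes is of interest in cells with altered excitability.

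Promoters are shown for 4 of the genes, because the cAMP response element (CRE, TGACGTCA) is bound by the activity-regulated factor CREB and the RE1 element by REST, a repressor of neuronal genes in other cell types. Each window runs from 250 bases before to 50 bases after an annotated transcription start, 5′ to 3′ on the strand of the gene, taken from RefSeq for GRCm38.p6. Windows were found for 28 of the 37 genes, all but Nlgn3, Nrxn2, Rims2, Shank1, Shank2, Snap25, Syngr3, Syt4 and Vamp2. Capitals mark TGACGTCA, its shorter core TGACG, and 2 short forms from the left and right parts of RE1, TTCAGCACC and GGACAG, on either strand (CGTCA, GGTGCTGAA and CTGTCC are the reverse complements), and the 8-base CRE contains the 5-base core on each strand. Syn1 is shown because it holds both a CRE and an RE1 form, Homer1 for 3 copies of the core, Unc13a because it holds both RE1 forms and was highest in the Kir2.1 libraries, and Syngr1 as the most abundant of the set.
Syn1 (chrX:20920869-20921168, minus strand): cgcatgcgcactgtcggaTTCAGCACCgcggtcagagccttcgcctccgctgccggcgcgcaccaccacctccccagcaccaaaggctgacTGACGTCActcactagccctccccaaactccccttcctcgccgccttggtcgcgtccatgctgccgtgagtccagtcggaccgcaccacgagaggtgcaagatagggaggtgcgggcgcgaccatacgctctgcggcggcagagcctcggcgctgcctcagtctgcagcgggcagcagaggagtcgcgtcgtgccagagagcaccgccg
Homer1 (chr13:93303507-93303806, plus strand): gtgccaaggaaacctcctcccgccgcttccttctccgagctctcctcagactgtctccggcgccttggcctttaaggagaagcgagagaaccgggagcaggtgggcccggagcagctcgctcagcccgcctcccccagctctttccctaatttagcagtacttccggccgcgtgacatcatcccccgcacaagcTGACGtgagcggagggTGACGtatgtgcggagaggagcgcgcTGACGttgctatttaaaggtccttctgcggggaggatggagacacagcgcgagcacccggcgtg
Unc13a (chr8:71671708-71672007, minus strand): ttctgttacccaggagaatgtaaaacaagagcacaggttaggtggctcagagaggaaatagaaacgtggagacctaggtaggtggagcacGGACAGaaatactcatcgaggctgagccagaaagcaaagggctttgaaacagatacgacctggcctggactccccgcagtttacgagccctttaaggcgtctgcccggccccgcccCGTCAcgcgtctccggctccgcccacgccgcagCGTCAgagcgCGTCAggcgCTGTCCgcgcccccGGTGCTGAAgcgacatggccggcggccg
Syngr1 (chr15:80091084-80091383, plus strand): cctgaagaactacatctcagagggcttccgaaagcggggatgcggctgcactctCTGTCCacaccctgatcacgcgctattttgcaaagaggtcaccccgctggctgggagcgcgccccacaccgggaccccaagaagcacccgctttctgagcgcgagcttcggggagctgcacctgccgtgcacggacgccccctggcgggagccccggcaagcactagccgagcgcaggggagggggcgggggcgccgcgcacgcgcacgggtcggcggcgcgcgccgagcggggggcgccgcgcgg
The full CRE stood in 1 of the 28 genes, Syn1, and in 2.03% of the 27025 genes with a window. Its 5-base core stood in 9 of 28 (32.1%), namely Cplx1, Dlg4, Homer1, Nlgn2, Rab3a, Sncb, Stx1a, Syn1 and Unc13a, against 23.0% of all genes. The left RE1 form was found in Nlgn1, Syn1 and Unc13a, 3 of 28 (10.7%), against 0.433% of all genes. The right form was found in 7 of 28 (25%), against 24.7%. A gene counted if any of its windows held the form, and some of the 28 genes had more than 1 window. Genes with more windows had more chances of a match, and the number of windows per gene was not matched between the 28 and all genes. Counted by window, the 5-base core stood in 20.8% of all 32851 windows. These matches describe letters in a window and were not tested against the expression values.

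The libraries differed in their makeup, and this bears on every value below. Total counts were 8871595 to 13632970 per library. The labels call the cells neurons, yet 16 microglial markers were at 1 CPM (a count scaled by TMM to a library of 1000000) or more in all 6 libraries, with sums of 137971 and 126338 CPM in Kv1.2 libraries, 59550.5 and 118986 in Kir2.1 libraries and 74205 and 9755 in the control libraries. The 18 pan-neuronal markers summed to 5.29 and 57.3 CPM in Kv1.2 libraries, 121 and 32.8 in Kir2.1 libraries and 500.2 and 1939 in the control libraries, and the 15 olfactory bulb interneuron markers to 33.2 and 31.8, 60.8 and 91.7 and 651 and 843 CPM. Of the defining neuronal markers, Tubb3 was at 0 in both Kv1.2 libraries, in Kir2.1 replicate 2 and in control replicate 1, and Rbfox3 had 3.36 and 0 CPM in Kv1.2 libraries, 2.17 and 0 in Kir2.1 libraries and 0.398 and 20.1 in the control libraries, so that a library of each channel group lay above control replicate 1. Map2 had 0.641 and 0.163 CPM in Kv1.2 libraries, 10.3 and 31.3 in Kir2.1 libraries and 97 and 489.7 in the control libraries. Gad1, which makes GABA, had 0 and 0, 11.1 and 0.543 and 141 and 155 CPM in the same order, and Dcx, of migrating neuroblasts, 0 and 0.244, 0 and 0 and 82.7 and 19.3 CPM. Control replicate 2 also held olfactory ensheathing cell markers (19990 CPM over 7 genes, against 22.4 to 954 in the other 5 libraries) and astrocyte markers (3595 CPM over 12 genes, against 231 to 1050), and Kir2.1 replicate 1 held border macrophage markers (1706 CPM over 7 genes, against 21 to 146). Reads of the channel genes did not separate the groups. Kcnj2, the gene of Kir2.1, had 5.8 and 28.3 CPM in the Kir2.1 libraries, against 17.7 and 0.0814 in Kv1.2 libraries and 8.66 and 10.7 in the control libraries, although the viral Kir2.1 came from a mouse cDNA. Kcna2, the gene of Kv1.2, had 1.92 and 0.407 CPM in the Kv1.2 libraries, against 0.272 and 0.0906 in Kir2.1 libraries and 0.299 and 54 in the control libraries, but the viral Kv1.2 came from a human cDNA. The groups below are therefore those of the labels, which these reads do not check. In such bulk samples, fewer neurons and less RNA of a gene per neuron cannot be told apart, and the part of the cell mixture in the values below was not tested.

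Most of the synaptic genes were near or under the detection limit in the 4 channel libraries (those labelled Kv1.2 or Kir2.1). More of them were seen in the control libraries, above all in control replicate 2. Of the 37 genes, 13 and 9 were at 1 CPM or more in the Kv1.2 libraries and 13 and 9 in the Kir2.1 libraries, against 27 and 37 in the control libraries. At least 1 count was seen for 24 and 24 genes in Kv1.2 libraries, 33 and 30 in Kir2.1 libraries and 36 and 37 in control libraries. After every library was thinned to 8871595 counts, these numbers were 23 and 24, 33 and 28, and 36 and 37, with the groups in the same order. The summed level of all 37 was 1003 and 982 CPM in the Kv1.2 libraries, 727 and 958 CPM in the Kir2.1 libraries and 2123 and 3360 CPM in the control libraries. A single gene, Syngr1, made up 86.6% and 91.6% of the sum in the Kv1.2 libraries and 80.2% and 81.9% in the Kir2.1 libraries, against 44.6% and 5.48% in the control libraries. Without it, the sums were 134 and 82.4 CPM in the Kv1.2, 144 and 174 CPM in the Kir2.1 and 1176 and 3176 CPM in the control libraries, with no overlap between the control and the others.

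**Figure D1:**
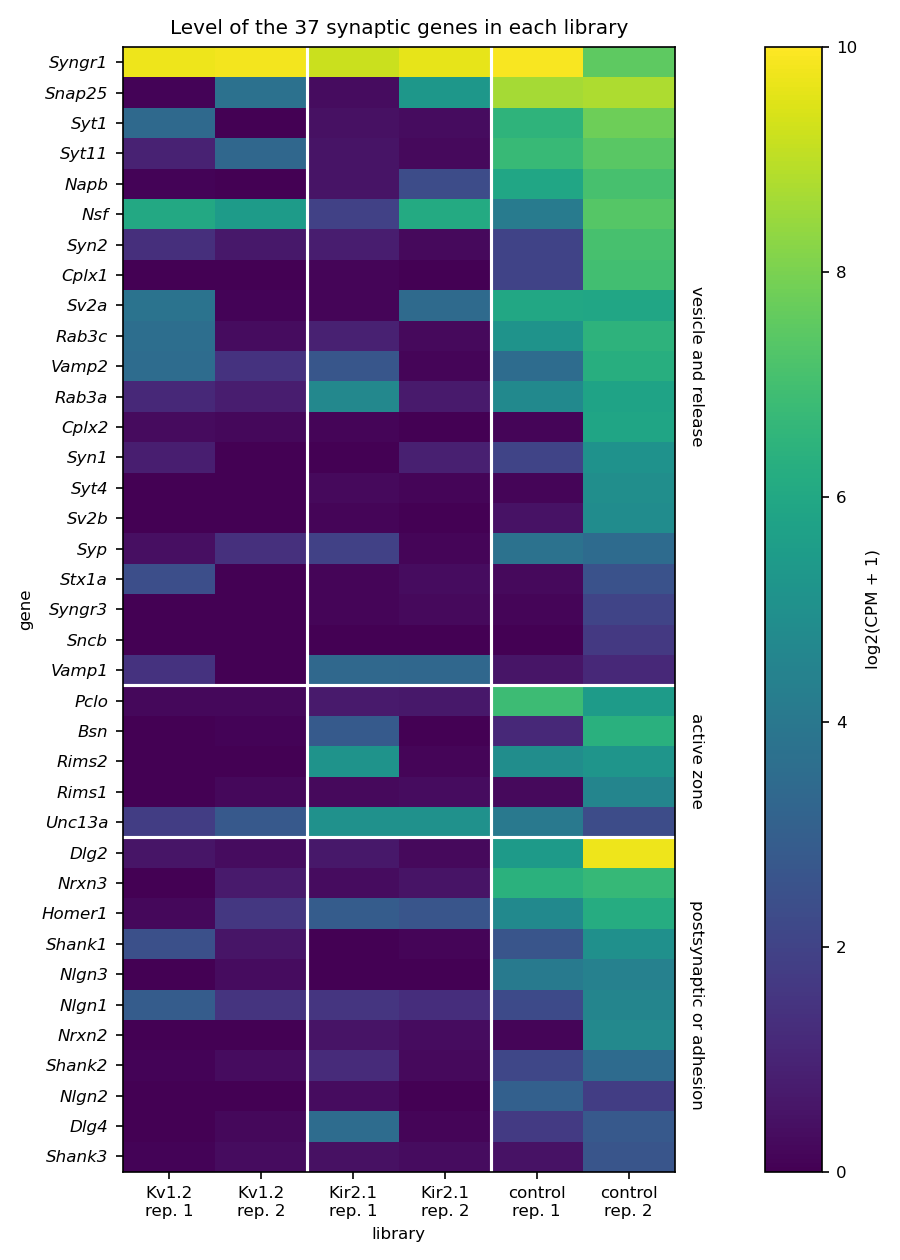
Level of each of the 37 synaptic genes (rows, grouped by role and ordered by the control mean) in each of the 6 libraries (columns), as log2(CPM + 1). Syngr1 is bright in all libraries, and 15 genes were under 1 CPM in all 4 channel libraries.

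All 3 compartments had lower sums in the channel libraries than in the control libraries. Vesicle and release genes summed to 989 and 969 CPM in the Kv1.2 libraries and 631 and 917 CPM in the Kir2.1 libraries, against 1772 and 2023 CPM in the control libraries, and 10 and 6, 6 and 6, and 14 and 21 of the 21 genes were at 1 CPM or more. Active zone genes summed to 2.64 and 6.35 CPM in the Kv1.2 libraries and 73.1 and 33.0 CPM in the Kir2.1 libraries, against 160 and 188 CPM in the control libraries. Postsynaptic and adhesion genes summed to 11.9 and 6.27 CPM in the Kv1.2 libraries and 22.3 and 8.24 CPM in the Kir2.1 libraries, against 190.2 and 1149 CPM in the control libraries.

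**Figure D2:**
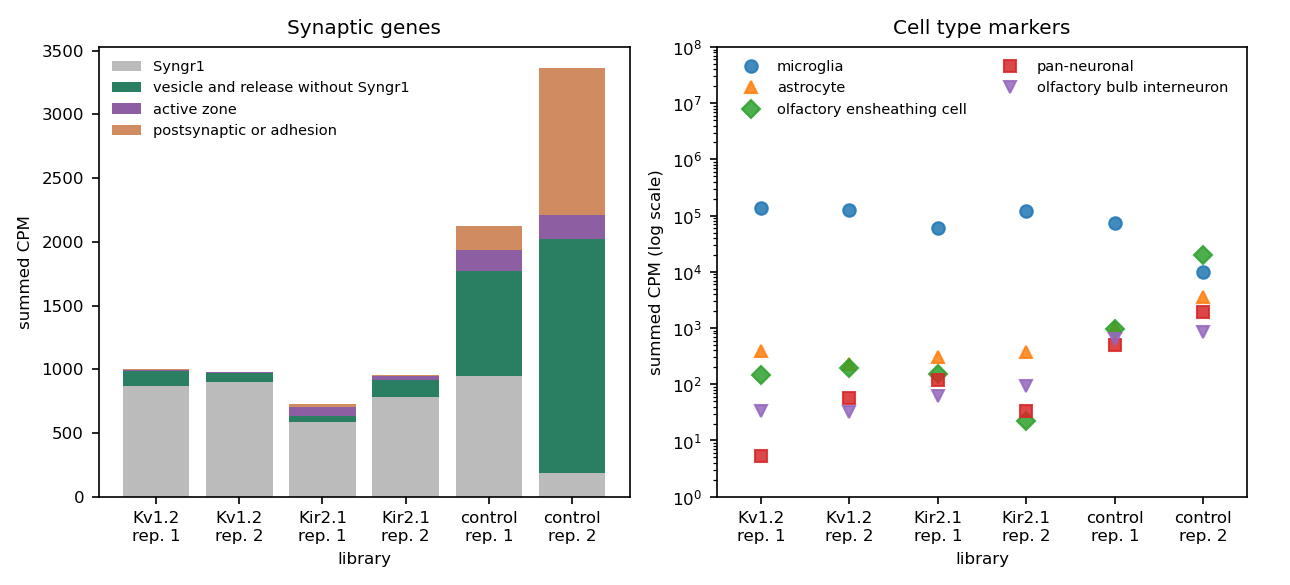
Left, summed CPM of the synaptic genes in each library, stacked by compartment with Syngr1 drawn apart. Right, summed CPM of 5 cell type marker lists in the same libraries on a log scale. Control replicate 2 has the highest synaptic sum (3360 CPM) and the lowest microglial sum (9755 CPM).

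Which genes could be tested depended on the control libraries. A minimum of 1 CPM in at least 2 libraries left 29 of the 37 genes among 12275 genes tested. The 8 genes under it (Syt4, Cplx2, Sv2b, Syngr3, Sncb, Rims1, Nrxn2 and Shank3) reached 1 CPM only in control replicate 2. The minimum used CPM of the total counts without TMM, whereas the split that follows used TMM-scaled CPM. By this split, 11 of the 29 were at 1 CPM or more in 2 or more channel libraries, and 18 in fewer. Rab3c, 1 of the 18, passed the minimum itself in 2 channel libraries. Where only the channel libraries were fitted, 12 of the genes passed it. The others of the 18 passed by way of the control libraries, which favours genes that are low in the channel groups. Of the 27 genes at 1 CPM or more in both control libraries, 7 (25.9%) reached it in none of the 4 channel libraries and 4 (14.8%) in all 4. Among all 7442 genes at 1 CPM or more in both control libraries, these shares were 8.61% and 56.7%.

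No synaptic gene passed an adjusted p of 0.05 in any of the 4 comparisons (edgeR's quasi-likelihood test, Benjamini-Hochberg adjustment over 12275 genes), against 0% of all genes tested in each of the comparisons of Kv1.2 with control, Kir2.1 with control and Kir2.1 with Kv1.2, and 0.0244% over both channel groups. The smallest adjusted p among the 29 was 0.287 for Kv1.2 and 0.359 for Kir2.1 against control, and 0.0683 over both channel groups. At an unadjusted p under 0.05, 12 of 29 genes were lower in the Kv1.2 group and 0 higher, where 8.81% of all genes tested were lower and 3.23% higher. In the Kir2.1 group 11 were lower and 0 higher, where 6.15% of all genes tested were lower and 3.25% higher. The comparison over both channel groups tests the mean of the 2 log2 fold changes, so a gene can pass it through 1 group. There 17 were lower and 0 higher, beside 10.5% and 2.85% of all genes tested. The 17 were Snap25, Napb, Syt1, Syt11, Cplx1, Syn2, Rab3c, Rims2, Bsn, Pclo, Nrxn3, Nlgn2, Nlgn3, Dlg2, Shank1, Shank2 and Homer1. Of these, Rims2 and Bsn overlapped the controls in the Kir2.1 group (log2 fold changes −0.92 and −3.76) and had 0 and 1 counts in the Kv1.2 group. The route through the minimum bears on these counts. Among the 18 at 1 TMM-scaled CPM or more in fewer than 2 channel libraries, 15 (83.3%) were lower over both channel groups, as were 37.3% of all such genes. Among the other 11 genes 2 were lower (18.2%), as were 3.47% of all genes of that kind. The 15 include Rab3c, which passed the minimum without the control libraries. DESeq2 gave an adjusted p for 27 of the genes and called 13 of them lower at an adjusted p under 0.05 in the Kv1.2 comparison, 11 in the Kir2.1 comparison and 15 over both, where it called 11.4%, 8.7% and 11.1% of all genes in either direction. The likelihood ratio test called 7, 5 and 14 of 29 lower, where it called 5.89%, 1.83% and 8.94% of all genes. With no count minimum 2, 2 and 8 of 37 were called lower, where 0.348%, 0.308% and 0.663% of all genes were called. Without control replicate 2 the edgeR counts of lower genes at an unadjusted p under 0.05 were 2 of 21 in each of the 3 comparisons. Without control replicate 1 they were 4, 6 and 9 of 22, with Syngr1 higher in all 3, and in the Kir2.1 comparison they were 5 of 29 without Kir2.1 replicate 1 and 7 of 29 without Kir2.1 replicate 2.

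The median log2 fold change of the 29 genes was −5.37 in the Kv1.2 group, −3.99 in the Kir2.1 group and −5.27 over both, where the medians of all genes tested were −0.12, 0.04 and −0.19, and setting genes with 0 counts in a group at their bound left these 3 medians as they were. These medians also depend on the route. Over both channel groups the median was −6.72 for the 18 genes at 1 TMM-scaled CPM or more in fewer than 2 channel libraries, against −4.14 for all such genes. It was −3.26 for the other 11, against 0.25 for all genes of that kind. In the Kv1.2 group the medians were −6.55 for the 18 (−5.46 for all such genes) and −2.80 for the 11 (0.26), and in the Kir2.1 group −6.91 (−3.86) and −2.96 (0.42). Of 29, 27 lay below 0 in the Kv1.2 group, 25 in the Kir2.1 group and 26 over both. Both libraries of the Kv1.2 group were below both control libraries for 22 of 29 genes, as for 24.9% of all genes tested, and none was above, as for 19.3%. In the Kir2.1 group 21 of 29 genes were below, as were 22.5% of all genes tested, and 2 above (Unc13a and Vamp1), as were 19.9%. All 4 channel libraries were below both control libraries for 19 of 29 genes, as for 13.8% of all genes tested. Of all 12275 genes tested, 9712 were at 1 TMM-scaled CPM or more in 2 or more channel libraries. Of the 1689 genes that were lower in every channel library, 940 were at that level in fewer than 2. Of the 19, 14 were among the 18 genes at that level in fewer than 2 channel libraries (77.8%, against 36.7% of all such genes). The remaining 5 were among the other 11 (45.5%, against 7.71%), namely Homer1, Rab3a, Snap25, Sv2a and Syp.

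**Figure D3:**
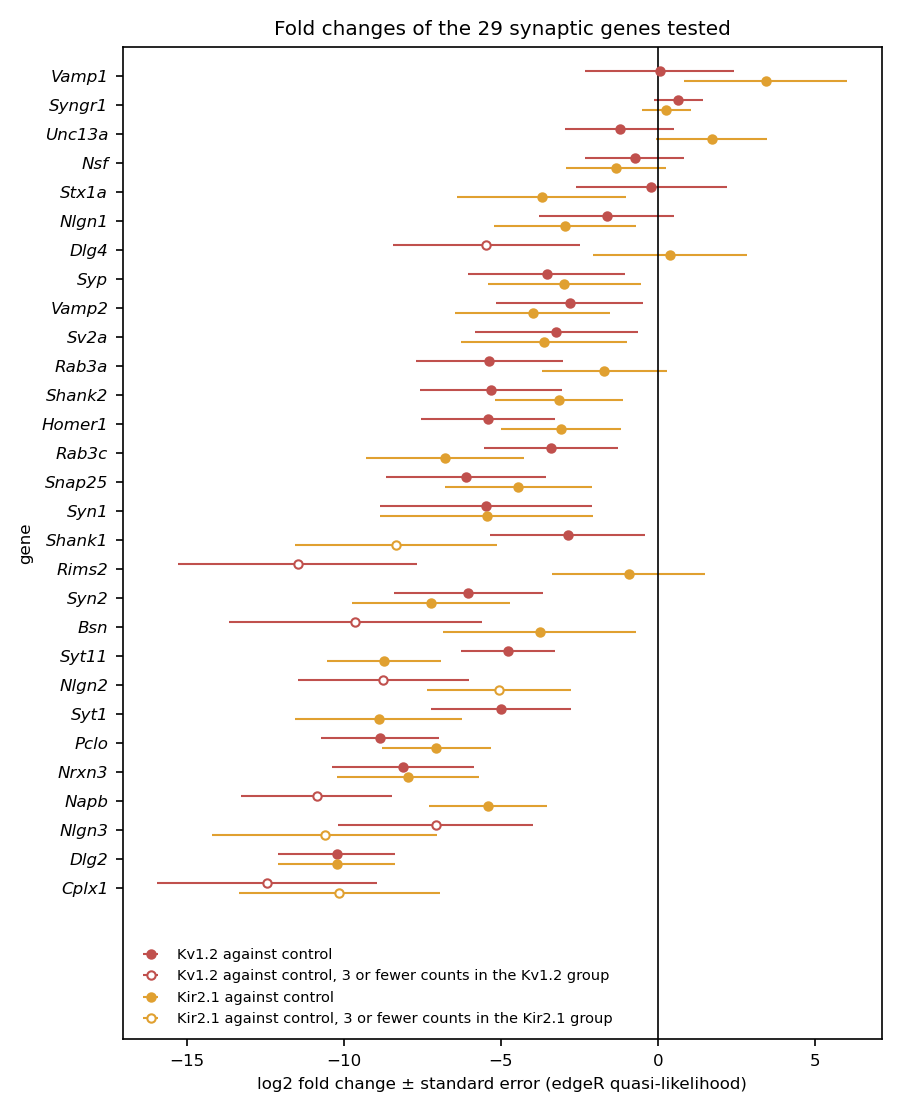
Log2 fold change and standard error (bars) of the 29 synaptic genes tested, for the Kv1.2 and the Kir2.1 group, each against control. Open symbols mark groups with 3 or fewer counts, whose fitted value depends on the prior count. Syngr1 lies above 0 in both comparisons (0.65 and 0.28), and Dlg2 at −10.22 in both.

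Among the SNARE genes, Snap25 was the most abundant per length in the control libraries. It encodes the plasma membrane SNARE that supplies a pair of helices to the fusion complex and its gene spans chromosome 2 from 136713453 to 136782428 (GRCm38, plus strand). Snap25 had 0.0801 and 12.1 CPM in the Kv1.2 libraries, 0.272 and 38.4 CPM in the Kir2.1 libraries and 400.5 and 439.6 CPM in the control libraries. Both channel groups were below both controls, but within each channel group 1 library kept a level that the other lacked. Its log2 fold change was −6.10 (SE 2.54) in the Kv1.2 and −4.44 (SE 2.35) in the Kir2.1 group (SE is the standard error, edgeR adjusted p = 0.414 and 0.569). Vamp2, the main synaptobrevin of forebrain vesicles, had 10.6 and 1.79 CPM in the Kv1.2 libraries, 5.34 and 0.0906 CPM in the Kir2.1 libraries and 10.5 and 76 CPM in the control libraries, and Kv1.2 replicate 1 lay level with control replicate 1. Its log2 fold changes were −2.80 (SE 2.33) in the Kv1.2 and −3.99 (SE 2.46) in the Kir2.1 group, and −0.85 and −1.98 without control replicate 2. Vamp1, the synaptobrevin best known from spinal cord and brainstem, went the other way in the Kir2.1 group, with 1.76 and 0 CPM in the Kv1.2 libraries, 9.42 and 9.15 CPM in the Kir2.1 libraries and 0.498 and 1.2 CPM in the control libraries. The 2 Kir2.1 libraries were close to each other and above all others, yet the log2 fold change of 3.44 (SE 2.6) did not pass the test (edgeR adjusted p = 0.702), and it was 0.06 (SE 2.37) in the Kv1.2 group, where RLE scaling put it at −0.065. Stx1a, the syntaxin of the release site, stayed under 5 CPM in every library and was seen at over 1 CPM in Kv1.2 replicate 1 (4.33 CPM) and control replicate 2 (4.79 CPM) only.

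The enzymes that recycle the SNAREs diverged. Nsf, the ATPase that separates SNARE complexes in all cells, had 64.1 and 43.3 CPM in the Kv1.2 libraries, 2.81 and 67.8 CPM in the Kir2.1 libraries and 16.7 and 162 CPM in the control libraries, with the Kv1.2 libraries between the 2 controls and Kir2.1 replicate 1 the lowest. Its log2 fold changes were −0.73 (SE 1.58) in the Kv1.2 and −1.34 (SE 1.6) in the Kir2.1 group, and without control replicate 2 both turned positive (1.6 and 0.99). Napb, the brain form of the SNAP adaptor that loads Nsf onto the complex, had 0.0801 and 0 CPM in the Kv1.2 libraries, 0.453 and 4.08 CPM in the Kir2.1 libraries and 58.8 and 134 CPM in the control libraries. The groups did not overlap, with the Kv1.2 libraries lowest, the Kir2.1 libraries next and the control libraries highest. Napb was 2302-fold lower (95% counting interval 413 to 90988) with Kv1.2 (edgeR adjusted p = 0.388) and had a log2 fold change of −5.41 (SE 1.87) in the Kir2.1 group (edgeR adjusted p = 0.521). Counting intervals and bounds cover the error of counting alone, because amplification makes reads that are not separate molecules.

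Of the synaptotagmins, Syt1 and Syt11 were tested. Syt1, the Ca2+ sensor of fast release, had 9.77 and 0 CPM in the Kv1.2 libraries, 0.362 and 0.272 CPM in the Kir2.1 libraries and 89.2 and 223 CPM in the control libraries. It was seen at over 1 CPM in just 1 channel library, Kv1.2 replicate 1, and its log2 fold changes were −4.99 (SE 2.22) in the Kv1.2 and −8.89 (SE 2.67) in the Kir2.1 group (edgeR adjusted p = 0.426 and 0.521). Syt11, a synaptotagmin that does not bind Ca2+ and limits vesicle retrieval, had 0.961 and 9.12 CPM in the Kv1.2 libraries, 0.453 and 0.181 CPM in the Kir2.1 libraries and 104 and 172 CPM in the control libraries. All 4 channel libraries were below both controls, and the log2 fold changes were −4.77 (SE 1.5) in the Kv1.2 and −8.72 (SE 1.8) in the Kir2.1 group, with an edgeR adjusted p of 0.135 over both. Syt4, a synaptotagmin of dense-core vesicles, had 0 and 0 CPM in the Kv1.2 libraries, 0.181 and 0.0906 CPM in the Kir2.1 libraries and 0.0996 and 29.9 CPM in the control libraries and was not tested. It was carried by 1 control library and was at least 113-fold lower with Kv1.2 and 100.4-fold lower (95% counting interval 34 to 490.3) with Kir2.1.

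Complexins and synapsins showed wide gaps between the controls themselves. Cplx1 had 0 and 0 CPM in the Kv1.2 libraries, 0.0906 and 0 CPM in the Kir2.1 libraries and 2.99 and 125 CPM in the control libraries, with a single count over the 4 channel libraries. It was at least 482-fold lower with Kv1.2 and 1288-fold lower (95% counting interval 231 to 50921) with Kir2.1 (edgeR adjusted p = 0.394 and 0.521). Cplx2 had 0.24 and 0.163 CPM in the Kv1.2 libraries, 0.0906 and 0 CPM in the Kir2.1 libraries and 0.0996 and 58.3 CPM in the control libraries, so that control replicate 1 lay within the range of the channel libraries and the gene rested on control replicate 2 alone. Synapsins tether vesicles to each other and to actin in the reserve pool. Syn1, whose promoter holds the CRE and the RE1 form shown above, had 0.801 and 0 CPM in the Kv1.2 libraries, 0 and 0.815 CPM in the Kir2.1 libraries and 3.19 and 33.5 CPM in the control libraries, and Syn2 had 1.52 and 0.57 CPM in the Kv1.2 libraries, 0.725 and 0.181 CPM in the Kir2.1 libraries and 3.09 and 135 CPM in the control libraries. Both were lower in all 4 channel libraries than in either control, with log2 fold changes of −5.48 (SE 3.38) in the Kv1.2 and −5.45 (SE 3.38) in the Kir2.1 group for Syn1, and −6.03 (SE 2.38) and −7.22 (SE 2.51) for Syn2. Without control replicate 2 the values of Syn2 were −1.64 and −2.79. The exons of Syn1 overlap those of Araf on the other strand and the exons of Syn2 those of Timp4, and since the library protocol does not mark strand their reads cannot be fully told apart. Araf had 37.7 and 25.6 CPM in Kv1.2 libraries, 33.9 and 52.1 in Kir2.1 libraries and 97.9 and 112 in the control libraries, likewise with both controls above all 4 channel libraries.

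Rab3 GTPases mark vesicles for docking through RIM. Rab3a had 1.2 and 0.733 CPM in the Kv1.2 libraries, 24.2 and 0.634 CPM in the Kir2.1 libraries and 25.5 and 55.3 CPM in the control libraries. Kir2.1 replicate 1 stood just under control replicate 1, whereas the other 3 channel libraries were at 1.2 CPM or less, and the log2 fold changes were −5.37 (SE 2.34) in the Kv1.2 and −1.70 (SE 1.99) in the Kir2.1 group. Mpv17l2, which overlaps Rab3a on the other strand, had 44.3 and 21.7 CPM in the Kv1.2 libraries, 6.79 and 16.2 in the Kir2.1 libraries and 43.9 and 38.4 in the control libraries. The share of reads common to both genes was not tested. Rab3c had 11.1 and 0.244 CPM in the Kv1.2 libraries, 0.906 and 0.181 CPM in the Kir2.1 libraries and 34.5 and 86.6 CPM in the control libraries, with Kv1.2 replicate 1 the exception, and log2 fold changes of −3.41 (SE 2.14) in the Kv1.2 and −6.77 (SE 2.51) in the Kir2.1 group.

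Among the proteins that span the vesicle membrane, Syngr1 stood alone. It encodes synaptogyrin 1, an abundant vesicle protein of the synaptophysin superfamily, and had 869 and 899.6 CPM in the Kv1.2 libraries, 583 and 785 CPM in the Kir2.1 libraries and 946 and 184 CPM in the control libraries. Control replicate 2 was the lowest by far, and the other 5 libraries lay between 583 and 946 CPM. Its log2 fold changes of 0.65 (SE 0.781) in the Kv1.2 and 0.28 (SE 0.779) in the Kir2.1 group had the smallest SE of the set, and they were −0.18 and −0.54 without control replicate 2. The same library had the lowest microglial marker sum (9755 CPM, against 59550 to 137971 in the other 5), and whether Syngr1 reads came from neurons was not tested. Sv2a, a transporter-like protein of all synaptic vesicles, had 12.9 and 0.0814 CPM in the Kv1.2 libraries, 0.0906 and 9.87 CPM in the Kir2.1 libraries and 62.2 and 60.1 CPM in the control libraries, so that 1 library of each channel group kept about 10 CPM and the other had almost none. Its log2 fold changes were −3.23 (SE 2.59) in the Kv1.2 and −3.62 (SE 2.63) in the Kir2.1 group. Syp, synaptophysin, had 0.32 and 1.63 CPM in the Kv1.2 libraries, 2.81 and 0.0906 CPM in the Kir2.1 libraries and 12.7 and 10.2 CPM in the control libraries, below both controls in all 4 channel libraries, with edgeR adjusted p = 0.614 for Kv1.2 and 0.736 for Kir2.1. Sv2b had 0 and 0 CPM in the Kv1.2 libraries, 0.0906 and 0 CPM in the Kir2.1 libraries and 0.398 and 28.3 CPM in the control libraries and, like Syngr3 and Sncb (beta-synuclein), both under 4 CPM everywhere, rested on control replicate 2. Sncb had 18 counts in that library and 0 in each of the other 5.

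The active zone genes differed among themselves in the channel libraries. Pclo and Bsn encode Piccolo and Bassoon, the giant scaffolds of the release site. Pclo had 0.16 and 0.163 CPM in the Kv1.2 libraries, 0.634 and 0.543 CPM in the Kir2.1 libraries and 115 and 43.9 CPM in the control libraries, with all channel libraries far below both controls. Its log2 fold changes were −8.84 (SE 1.89) in the Kv1.2 and −7.05 (SE 1.74) in the Kir2.1 group (edgeR adjusted p = 0.37 and 0.521), and −7.95 (SE 1.33) over both (edgeR adjusted p = 0.114). Bsn had 0 and 0.0814 CPM in the Kv1.2 libraries, 6.07 and 0 CPM in the Kir2.1 libraries and 1.19 and 81.4 CPM in the control libraries. Here Kir2.1 replicate 1 lay above control replicate 1, and Bsn was 932-fold lower (95% counting interval 167 to 36852) with Kv1.2 and had a log2 fold change of −3.76 (SE 3.07) in the Kir2.1 group. Without control replicate 2 the log2 fold change was 1.29 for Kir2.1, so that its sign rested on that library. For Kv1.2 it went from −9.63 to −4.62 and stayed negative. RIM proteins link Rab3, Munc13 and Ca2+ channels. Rims2 had 0 and 0 CPM in the Kv1.2 libraries, 34 and 0.0906 CPM in the Kir2.1 libraries and 28.6 and 36 CPM in the control libraries, so that Kir2.1 replicate 1 was at the control level and the other 3 channel libraries at 0 or 1 count. Rims2 was at least 264-fold lower with Kv1.2 (edgeR adjusted p = 0.394) and had −0.92 (SE 2.44) in the Kir2.1 group. Rims1 had 0 and 0.163 CPM in the Kv1.2 libraries, 0.181 and 0.272 CPM in the Kir2.1 libraries and 0.199 and 22.1 CPM in the control libraries and rested on control replicate 2.

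Unc13a, which encodes the priming factor Munc13-1, was the one active zone gene above the control in the Kir2.1 group. It had 2.48 and 5.94 CPM in the Kv1.2 libraries, 32.2 and 32.1 CPM in the Kir2.1 libraries and 15.5 and 4.07 CPM in the control libraries. The 2 Kir2.1 libraries agreed closely and lay above both controls and both Kv1.2 libraries, but the log2 fold change of 1.71 (SE 1.76) was under 1 SE from 0 (edgeR adjusted p = 0.812), and in the Kv1.2 group it was −1.22 (SE 1.74). The exons of Unc13a overlap those of Colgalt1, a gene on the other strand with 9.45 and 17 CPM in Kv1.2 libraries, 14.7 and 24.2 in Kir2.1 libraries and 58.6 and 3.83 in the control libraries, whose highest library was control replicate 1. Exons of Syt4, Sv2b, Syp, Bsn, Pclo, Nrxn2, Nrxn3, Nlgn1, Nlgn3, Dlg2, Shank1 and Shank3 also overlap those of other annotated genes, all but Slc22a12 (at Nrxn2) known by a provisional name, with which they may share reads.

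**Figure D4:**
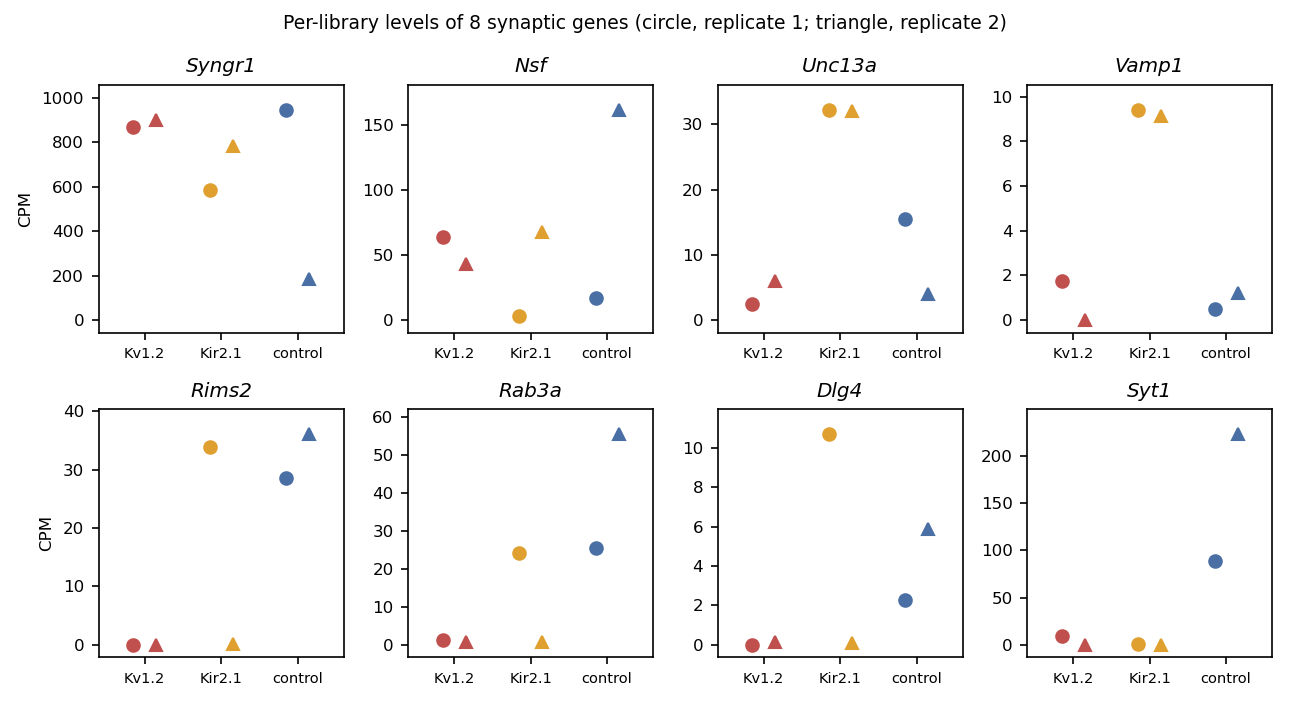
CPM of 8 synaptic genes in each library, by group (circles, replicate 1; triangles, replicate 2), on linear axes that differ between genes. Unc13a and Vamp1 are high in both Kir2.1 libraries (32.2 and 32.1 CPM, and 9.42 and 9.15 CPM), while Rims2, Rab3a and Dlg4 are high in Kir2.1 replicate 1 only.

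Adhesion molecules of the cleft were low in both channel groups. Nrxn3, a presynaptic neurexin, had 0 and 0.651 CPM in the Kv1.2 libraries, 0.272 and 0.453 CPM in the Kir2.1 libraries and 83.2 and 103 CPM in the control libraries. The controls were close to each other and the channel libraries under 1 CPM, with log2 fold changes of −8.11 (SE 2.27) in the Kv1.2 and −7.96 (SE 2.26) in the Kir2.1 group and an edgeR adjusted p of 0.16 over both. Nrxn2 had 0 and 0 CPM in the Kv1.2 libraries, 0.453 and 0.272 CPM in the Kir2.1 libraries and 0.0996 and 25 CPM in the control libraries and rested on control replicate 2. Of the neuroligins, Nlgn3 had 0 and 0.244 CPM in the Kv1.2 libraries, 0 and 0 CPM in the Kir2.1 libraries and 15.7 and 20.1 CPM in the control libraries and was 146-fold lower (95% counting interval 49.6 to 713) with Kv1.2 and at least 130.4-fold lower with Kir2.1. Nlgn2, the neuroligin of inhibitory synapses, stayed under 10 CPM in every library (7.27 and 2.51 CPM in the controls), with 0 counts in Kv1.2 libraries and 3 in Kir2.1 libraries, and was at least 42.2-fold lower with Kv1.2. Nlgn1, the neuroligin of excitatory synapses, was the exception, with 6.57 and 1.87 CPM in the Kv1.2 libraries, 1.9 and 1.45 CPM in the Kir2.1 libraries and 3.78 and 22.4 CPM in the control libraries. Kv1.2 replicate 1 was above control replicate 1, and the log2 fold changes of −1.63 (SE 2.14) in the Kv1.2 and −2.96 (SE 2.25) in the Kir2.1 group did not pass the test.

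Dlg2 gave the lowest p of the whole set. It encodes PSD-93, a scaffold of the PSD-95 family, and spans chromosome 7 from 90476672 to 92449247 on the plus strand. Dlg2 had 0.481 and 0.244 CPM in the Kv1.2 libraries, 0.544 and 0.181 CPM in the Kir2.1 libraries and 42.5 and 851 CPM in the control libraries. The controls differed 20.0-fold from each other, but all 4 channel libraries were under 1 CPM. The log2 fold change was −10.22 (SE 1.86) in the Kv1.2 group (edgeR adjusted p = 0.287), −10.22 (SE 1.86) in the Kir2.1 group (edgeR adjusted p = 0.359) and −10.22 (SE 1.35) over both (edgeR adjusted p = 0.0683). Dlg4, PSD-95 itself, was low in all but 1 library, with 0 and 0.163 CPM in the Kv1.2 libraries, 10.7 and 0.0906 CPM in the Kir2.1 libraries and 2.29 and 5.87 CPM in the control libraries. Kir2.1 replicate 1 exceeded both controls, and Dlg4 was 48.5-fold lower (95% counting interval 12.9 to 408) with Kv1.2 and had a log2 fold change of 0.40 (SE 2.45) in the Kir2.1 group, which was −5.35 without Kir2.1 replicate 1.

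The Shank and Homer scaffolds sit deeper in the postsynaptic density. Homer1 had 0.16 and 2.12 CPM in the Kv1.2 libraries, 6.43 and 5.25 CPM in the Kir2.1 libraries and 26.2 and 72.2 CPM in the control libraries, so that the Kir2.1 libraries lay between the Kv1.2 and the control libraries without overlap. Its log2 fold changes were −5.42 (SE 2.14) in the Kv1.2 group and −3.07 (SE 1.91) in the Kir2.1 group (edgeR adjusted p = 0.407 and 0.626). Shank1 had 4.49 and 0.488 CPM in the Kv1.2 libraries, 0 and 0.0906 CPM in the Kir2.1 libraries and 5.28 and 31.2 CPM in the control libraries, with Kv1.2 replicate 1 close to control replicate 1, a log2 fold change of −2.87 (SE 2.48) in the Kv1.2 group, and a level 377-fold lower (95% counting interval 67.2 to 14934) with Kir2.1. Shank2 had 0.0801 and 0.244 CPM in the Kv1.2 libraries, 1.36 and 0.181 CPM in the Kir2.1 libraries and 3.39 and 10.4 CPM in the control libraries and log2 fold changes of −5.32 (SE 2.26) in the Kv1.2 and −3.14 (SE 2.03) in the Kir2.1 group. Shank3 was under 6 CPM in every library and over 1 CPM in control replicate 2 only.

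A channel library tended to hold a handful of synaptic genes and miss the rest, and which ones differed between libraries. Of the 37 genes, 15 were under 1 CPM in all 4 channel libraries, 11 reached it in 1 of them, 4 in 2 (Snap25, Rab3a, Sv2a and Syp), 3 in 3 (Vamp1, Vamp2 and Homer1) and 4 in all 4 (Nsf, Syngr1, Unc13a and Nlgn1). For 30 genes with more than 3 counts over the channel libraries, 1 library held over 50% of the summed CPM in 19 cases. The same share was not taken over all genes or over genes with as few counts, so 19 of 30 cannot be read as particular to synaptic genes. The library with over 50% was Kv1.2 replicate 1 for 8 genes (Stx1a, Vamp2, Syt1, Syn2, Rab3c, Sv2a, Nlgn1 and Shank1) and Kir2.1 replicate 1 for 7 (Rab3a, Syp, Rims2, Bsn, Nrxn2, Dlg4 and Shank2). It was Kir2.1 replicate 2 for 3 (Snap25, Napb and Syn1) and Kv1.2 replicate 2 for Syt11. Of genes tested at 10 CPM or more in at least 1 replicate, 3 of 6 synaptic genes differed over 10-fold between the Kv1.2 replicates, 5 of 7 between the Kir2.1 replicates and 5 of 25 between the controls, where the shares of all genes were 28.5%, 29.1% and 28.0%. These counts leave out the 8 genes not tested. Among those, Syt4, Cplx2, Sv2b, Rims1 and Nrxn2 were at 22.1 to 58.3 CPM in control replicate 2 and over 10-fold lower in control replicate 1. The count of the controls thus omits genes seen in 1 control only, and it cannot be set against those of the channel groups.

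Kir2.1 and Kv1.2 were also compared directly. Over 29 genes, 13 had a lower and 16 a higher fitted level in the Kir2.1 group, with a median log2 fold change of 0.15 where that of all genes tested was 0.13. At an unadjusted p under 0.05, Syt11 was lower in the Kir2.1 group and Napb and Rims2 were higher, beside 2.05% of all genes tested lower and 4.02% higher, and the smallest edgeR adjusted p was 0.739. With DESeq2, Rims2 alone of the set passed an adjusted p of 0.05 and was higher, as 5.78% of all genes passed it in either direction. With only the Kir2.1 and Kv1.2 libraries in the edgeR fit, 0 were lower and 0 higher. The 4 active zone genes tested, Unc13a, Rims2, Bsn and Pclo, all had a positive value. Of these, Bsn had 6.07 CPM in Kir2.1 replicate 1 and 0 in Kir2.1 replicate 2, and Pclo was under 1 CPM in all 4 channel libraries. Rims2 was at least 141-fold higher in the Kir2.1 group, which rested on Kir2.1 replicate 1, and Napb was 56.1-fold higher (95% counting interval 9.61 to 2259). The log2 fold change was 2.93 (SE 1.84) for Unc13a, 1.79 (SE 1.43) for Pclo and −3.94 (SE 1.47) for Syt11. Both Kir2.1 libraries were above both Kv1.2 libraries for 6 of 29 genes (Homer1, Napb, Pclo, Rims2, Unc13a and Vamp1), as for 21.5% of all genes tested, and below them for 3 (Shank1, Syngr1 and Syt11), as for 16.7%.

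The controls were unlike each other for the same genes. In control replicate 2 all 37 genes were at 1 CPM or more, and in control replicate 1 there were 27. The 10 genes under it in replicate 1 were Stx1a, Vamp1, Syt4, Cplx2, Sv2b, Syngr3, Sncb, Rims1, Nrxn2 and Shank3. For 13 genes replicate 2 was over 10-fold higher, among them Cplx2 (487 counts against 1), Bsn (680 against 12), Dlg2 (7109 against 427) and Syn2 (1127 against 31). Replicate 1 was the higher for 6, namely Sv2a, Syp, Syngr1, Unc13a, Pclo and Nlgn2. The levels in both controls lay closest for Snap25, Sv2a, Syp, Rims2, Nrxn3 and Nlgn3. The pan-neuronal markers were 500.2 and 1939 CPM in the 2 control libraries, and so differed in the same direction as most synaptic genes. The sums of astrocyte and olfactory ensheathing cell markers were also higher in replicate 2, and those of microglial and border macrophage markers were lower. The cause of the difference was not tested.

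**Figure D5:**
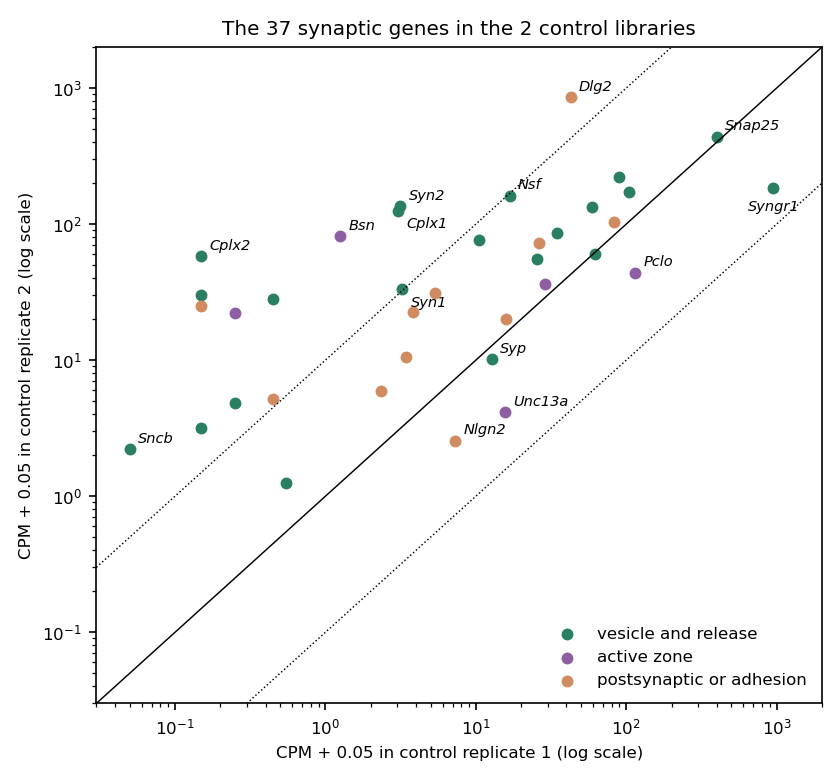
CPM of the 37 synaptic genes in control replicate 2 against control replicate 1, with 0.05 added to each value, on log axes. The solid line marks equal levels and the dotted lines 10-fold differences, and Cplx2, Bsn, Dlg2, Cplx1 and Syn2 lie above the upper one.

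Per kilobase of the gene length given in the count table, levels can be compared between genes within a library. Syngr1 had 181 and 187 CPM per kb in the Kv1.2 libraries, 121 and 163 CPM per kb in the Kir2.1 libraries and 197 and 38.3 CPM per kb in the control libraries. It was the highest of the 37 in 5 libraries, and in control replicate 2 it came after Snap25 (64.7 CPM per kb), Cplx1 (57) and Dlg2 (51.6). In control replicate 1 Snap25 (59 CPM per kb) and Syt11 (20.1) came next. After Syngr1, the Kv1.2 libraries had Nsf at 7.68 and 5.19 CPM per kb. In the Kir2.1 libraries the next gene was Rab3a in replicate 1 (10.9 CPM per kb) and Nsf in replicate 2 (8.13), so that the order below Syngr1 differed between the replicates.

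Other genes of the same pathways were taken from lists that share no gene with the 37. Of 40 further vesicle and release genes 25 were tested, and at an unadjusted p under 0.05 12 were lower with Kv1.2 and 9 with Kir2.1, with 0 higher in each and medians of −5.96 and −5.42, beside the 8.81% and 6.15% of all genes tested that were lower. Of the 25, 17 reached the minimum in fewer than 2 channel libraries, as did 10 of the 16 active zone genes and 17 of the 29 postsynaptic and adhesion genes that follow. Snap91, a clathrin adaptor, Synpr, synaptoporin, and Syn3, the third synapsin, had log2 fold changes over both channel groups of −7.96 (SE 1.47), −9.47 (SE 1.92) and −6.84 (SE 1.4). Atp6v0a1, a subunit of the proton pump, and Stxbp5, tomosyn, had the largest positive values, 1.71 (SE 1.48) and 0.86 (SE 2.23). Of 16 further active zone genes tested, 7 were lower and 1 higher in the Kv1.2 and 5 lower and 1 higher in the Kir2.1 group. Of all genes tested, 3.23% and 3.25% were higher. The higher one was Ppfia4, a liprin-alpha, with 279 and 280.2 CPM in the Kv1.2 libraries, 201 and 208 CPM in the Kir2.1 libraries and 70.2 and 39.5 CPM in the control libraries, all 4 channel libraries above both controls. Cask, a scaffold kinase, also had a positive value, 1.26 (SE 0.804), whereas Cacna2d1 and Cacna1b, subunits of presynaptic Ca2+ channels, and Unc13c, a Munc13, had −8.47 (SE 1.97), −6.80 (SE 1.76) and −7.74 (SE 2.13).

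Of 29 further postsynaptic and adhesion genes tested, 13 were lower with Kv1.2 and 7 with Kir2.1, beside 8.81% and 6.15% of all genes tested. In each comparison 0 were higher, beside 3.23% and 3.25%. Dlgap1, which joins PSD-95 to Shank, had 8.57 and 6.92 CPM in the Kv1.2 libraries, 1.18 and 0.272 CPM in the Kir2.1 libraries and 83.2 and 123 CPM in the control libraries, and the scaffold gene Magi2, the latrophilin gene Adgrl3 and Lrrtm2, a ligand of neurexins, had log2 fold changes over both channel groups of −7.32 (SE 1.71), −7.79 (SE 1.86) and −6.18 (SE 1.58). Adgrl2, another latrophilin, and the adhesion gene Cadm1 had positive values of 4.51 (SE 2.82) and 0.66 (SE 0.534). Broadly expressed paralogs of the fusion machinery are the SNAREs, Sec1 proteins and Rabs that serve traffic in all cells. Of 26 such genes tested, 0 were lower and 2 higher in the Kv1.2 group at an unadjusted p under 0.05, beside 8.81% and 3.23% of all genes tested. In the Kir2.1 group 1 was lower and 4 higher, beside 6.15% and 3.25%. The medians were 0.61 and 0.68, and 2 of the 26 genes reached the minimum in fewer than 2 channel libraries. Their sums were 3020.2 and 3004 CPM in Kv1.2 libraries, 2034 and 2949 in Kir2.1 libraries and 2069 and 1403 in the control libraries. Vamp3, cellubrevin, had 60.5 and 88.4 CPM in the Kv1.2 libraries, 97.5 and 65.3 CPM in the Kir2.1 libraries and 10.4 and 9.46 CPM in the control libraries, with every channel library above both controls. The same held for Stxbp3, a Sec1 protein, and Snap29, a SNARE of endosomes, with log2 fold changes over both groups of 2.92 (SE 1.03) and 4.60 (SE 1.87), and for Sypl, a relative of synaptophysin, with 1.53 (SE 0.67). Rab27a, a Rab of secretory organelles, had 4.21 (SE 3.12).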

How the data were processed

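RNA-seq libraries of 6 samples (2 per group) were analysed, with groups and replicate numbers taken from the sample labels. The submitters' processing notes and the methods of the study state that the authors used STAR 2.7.0f (alignment to GRCm38), SAMtools 1.9 (filtering) and Subread 1.6.4 (counting per gene). The deposited table used here holds whole-number counts for 55573 genes, without normalization, and the authors' gene length in bases (another kind of value), used for levels per kilobase. The sources used here do not state whether counting used strand. The methods give single 75 bp reads and the labels paired 100 bp reads, a difference that could not be settled. Deposited normalized values and the authors' tables of fold changes, p-values and FDR were not used.

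The 37 members, the gene lists and the tests were chosen with earlier results of these data known. The 12275 genes that reached 1 CPM in 2 or more libraries were fitted, over all 6 libraries together, by edgeR 4.0.16's quasi-likelihood test with TMM scaling in R 4.3.3, and 4 contrasts were tested, with p-values adjusted by the Benjamini-Hochberg method over all genes tested. Standard errors were taken as the log2 fold change over the root of the F statistic. With 2 libraries per group, all groups share one estimate of the spread. CPM are counts scaled to a TMM-adjusted library of 1000000, except that the minimum for testing used total counts without TMM. A group at 0 counts was set at a floor of 3 counts for the whole group, and one with 1 to 3 counts by its ratio with an exact 95% binomial interval. All 37 members are named, those with 10 CPM or more in any library or a positive fold change with every value. Of other pathway lists, up to 4 genes with the lowest p over both channel groups and up to 2 with the largest positive change are named, and 1 gene that met this rule is not reported here. Alternatives were DESeq2 1.42.0, the likelihood ratio test, a robust fit, RLE scaling, library size only, 3 other count minimums, only the compared groups, a replicate block, and leaving out each library. For the number of genes detected, libraries were also thinned to the smallest total. The fits were tested on simulated counts.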

Additional observations from a re-analysis of the deposited data

Results flagged for a closer look

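For 3 synaptic genes the Kir2.1 and Kv1.2 groups differed at an unadjusted p under 0.05 of edgeR's quasi-likelihood test of the difference itself, and none passed an adjusted p of 0.05 (adjusted p = 0.739 for each). They were 1 lower and 2 higher of 29 genes, beside 2.05% lower and 4.02% higher of all genes tested, and 0 and 0 where the control libraries were left out of the fit. The log2 fold change of Kir2.1 against Kv1.2 was 5.46 for Napb, the SNAP adaptor, which had 0.453 and 4.08 CPM in the Kir2.1 and 0.0801 and 0 CPM in the Kv1.2 libraries. It was 10.53 for Rims2, the RIM scaffold, with 34 and 0.0906 CPM in the Kir2.1 and 0 and 0 CPM in the Kv1.2 libraries, so that the value rests on Kir2.1 replicate 1, and with 0 counts in the Kv1.2 group it depends on the prior count. Syt11, the synaptotagmin that does not bind Ca2+, had −3.94, with 0.453 and 0.181 CPM in the Kir2.1 and 0.961 and 9.12 CPM in the Kv1.2 libraries. Groups of 2 libraries were not examined for outlying samples.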

How the results depend on the processing

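At an adjusted p under 0.05, where edgeR's quasi-likelihood test called 0 synaptic genes, DESeq2 called 13 with Kv1.2, 11 with Kir2.1, 15 over both channel groups and 1 for Kir2.1 against Kv1.2, where it called 11.4%, 8.7%, 11.1% and 5.78% of all genes. The likelihood ratio test called 7, 5 and 14 (5.89%, 1.83% and 8.94% of all genes), and a fit with no count minimum 2, 2 and 8 (0.348%, 0.308% and 0.663%). With 1 CPM in 3 libraries, lower genes at an unadjusted p under 0.05 were 6 of 21 with Kir2.1 and 11 of 21 over both channel groups. For Kir2.1 against Kv1.2, 1 lower and 2 higher genes became 3 and 6 with DESeq2 and 0 and 0 with only the compared groups, and lower genes were 2 with the likelihood ratio test and with no minimum. Replicate numbers did not pair the libraries (correlation of deviations −0.040 to 0.013). With a replicate block, the Kir2.1 median moved to −5.57, 9, 9 and 13 genes were lower in the 3 comparisons with control, and 0 lower and 0 higher for Kir2.1 against Kv1.2. For the counts at an unadjusted p in these other fits, the share of all genes was not taken.

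With 1 library left out, a group of 1 is assumed to vary like the others, and genes that then fall under the minimum drop out. Lower genes then numbered 2 to 15 with Kv1.2, 2 to 11 with Kir2.1 and 2 to 18 over both, and higher genes 0 to 1 in each. Medians ranged from −6.16 to −3.78, −6.82 to −2.17 and −6.30 to −3.27, the weakest each time without control replicate 2. For Kir2.1 against Kv1.2 there were 0 to 1 lower and 0 to 2 higher genes and a median of −0.23 to 1.80.

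Single genes changed sign in 20 fits. In the Kv1.2 comparison Stx1a turned positive with no count minimum (0.21) and the block (0.59), Nsf with the block (0.73), and Vamp1 negative with DESeq2 (−0.067), RLE scaling (−0.065), 1 CPM in 3 libraries (−0.075), only the compared groups (−0.029) and the block (−0.61). With libraries left out, values ranged from −1.26 to 0.77 for Stx1a, −6.18 to 1.03 for Vamp1, −1.69 to 1.6 for Nsf, −0.18 to 2.16 for Syngr1 and −2.80 to 0.069 for Nlgn1, and in the Kir2.1 comparison from −5.01 to 0.99 for Nsf, −0.54 to 1.80 for Syngr1, −8.32 to 0.057 for Rims2, −11.85 to 1.29 for Bsn and −5.35 to 1.37 for Dlg4. The causes were not tested. Robust fitting, filterByExpr and scaling by library size changed no count by over 1.5 times. With 2 libraries per group, levels of a few counts cannot show that a gene was absent.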
